A study of Rattus norvegicus with 10 samples.

Results

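The genes described here encode the subunits of the constitutive 26S proteasome, the particle that degrades ubiquitin-tagged proteins in every cell. They were taken by symbol from the deposited expression table, as every symbol made of Psma, Psmb, Psmc or Psmd and a number, without the immunoproteasome genes Psmb8, Psmb9 and Psmb10, and each gene was read from its brightest probe set. The rule found 34 genes among 19069 symbols: 7 alpha and 8 beta subunits of the 20S core, 6 ATPases of the 19S cap and 13 other 19S proteins. No probe set carried the symbols Psma8 or Psmd8, which were not analysed here. The values came from gastrocnemius, a mixed-fibre calf muscle, (the lateral head, left leg) of male Sprague-Dawley rats, an outbred stock fed freely, 5 of them aged and 5 young, with 1 array per animal and no treatment named. Aged rats were entered at 24 months and were 28 months old at necropsy, and young rats were entered at 6 months and were 7 months old at necropsy. The aged muscle stands for sarcopenia, in which muscle wastes and weakens late in life; age is the only model used, and muscle mass was not analysed here.

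The 20S core is a barrel in which rings of alpha subunits gate the entrance and rings of beta subunits hold the protease sites inside. The 19S cap sits on the barrel: its ATPases unfold the substrate and thread it in, and its other subunits bind ubiquitin, cut it off and hold the cap together. In muscle the proteasome breaks down much of the myofibrillar protein that is lost in wasting, and after a block of proteasome activity the transcription factor encoded by Nfe2l1 is known to raise subunit genes together.

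The promoters of 29 of the 34 genes were found in RefSeq's table for the rat build GRCr8, and 6 of them are shown because members moved together. The 6 were chosen with the calls known and for holding letters in capitals, so they do not stand for the rest. Each sequence holds the 250 bases before the annotated start, 5′ to 3′ on the gene's strand. Capitals mark the core of the antioxidant response element, TGACNNNGC, the kind of site through which Nfe2l1 and Nfe2l2 are known to act, and the CCAAT box, each on either strand. The first 3 belong to genes that did not pass the test between ages and the last 3 to genes that rose. CCAAT was not particular to genes that rose: it occurred in 12 of 21 that rose and 4 of 8 that did not pass.
Psmb5, chr15:32047380-32047629, minus strand: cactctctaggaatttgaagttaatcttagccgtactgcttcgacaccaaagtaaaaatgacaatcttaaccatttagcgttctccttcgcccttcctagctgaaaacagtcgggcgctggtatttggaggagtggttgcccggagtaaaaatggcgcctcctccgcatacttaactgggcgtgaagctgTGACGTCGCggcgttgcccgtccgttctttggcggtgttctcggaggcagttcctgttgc
Psmb2, chr5:144254808-144255057, plus strand: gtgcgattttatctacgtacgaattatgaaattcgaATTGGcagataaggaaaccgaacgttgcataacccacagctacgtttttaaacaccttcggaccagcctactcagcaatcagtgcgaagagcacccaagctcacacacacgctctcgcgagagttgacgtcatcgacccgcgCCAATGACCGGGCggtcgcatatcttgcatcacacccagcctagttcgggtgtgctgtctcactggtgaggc
Psmd1, chr9:94157721-94157970, plus strand: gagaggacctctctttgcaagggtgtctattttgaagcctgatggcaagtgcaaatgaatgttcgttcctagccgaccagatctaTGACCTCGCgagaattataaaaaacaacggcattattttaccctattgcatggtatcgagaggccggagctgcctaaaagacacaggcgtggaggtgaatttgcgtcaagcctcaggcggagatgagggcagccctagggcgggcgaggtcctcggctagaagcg
Psma2, chr17:55260442-55260691, minus strand: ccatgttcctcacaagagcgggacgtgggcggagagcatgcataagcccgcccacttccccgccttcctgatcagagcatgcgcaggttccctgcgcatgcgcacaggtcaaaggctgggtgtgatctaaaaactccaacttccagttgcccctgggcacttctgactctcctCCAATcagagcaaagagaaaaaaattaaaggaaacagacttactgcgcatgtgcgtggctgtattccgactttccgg
Psmb3, chr10:83193537-83193786, plus strand: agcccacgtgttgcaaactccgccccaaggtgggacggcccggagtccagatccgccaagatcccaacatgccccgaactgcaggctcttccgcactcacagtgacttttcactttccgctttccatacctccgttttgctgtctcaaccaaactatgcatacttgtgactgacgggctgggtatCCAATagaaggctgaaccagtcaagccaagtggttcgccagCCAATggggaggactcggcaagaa
Psmd10, chrX:109453606-109453855, minus strand: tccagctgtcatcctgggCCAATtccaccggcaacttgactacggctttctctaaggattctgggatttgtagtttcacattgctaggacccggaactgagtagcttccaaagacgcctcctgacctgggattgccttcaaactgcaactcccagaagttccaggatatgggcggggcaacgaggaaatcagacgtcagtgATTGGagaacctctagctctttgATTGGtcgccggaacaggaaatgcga

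Transcripts of most subunits were modestly higher in aged muscle, and none was called lower. In limma's moderated test with Benjamini-Hochberg adjustment over all 43686 probe sets, 23 of the 34 genes rose at an adjusted p under 0.05, 0 fell and 11 did not pass. Of all 19069 genes, 13.8% were called higher by the same rule, as were 8.09% of all probe sets, and of 6057 other genes within the brightness range of the subunits 26.3% were. The median log2 fold change was 0.35 over the subunits, 0.08 over the other genes of like brightness and -0.01 over all genes. Changes were small, from 1.2-fold to 1.61-fold among the 23 that rose, and 5 of them reached 1.5-fold, as 5.93% of all genes did. All 5 aged animals lay above all 5 young ones for 15 subunits, a pattern that 10.6% of all genes and 21.2% of the other genes of like brightness showed. The call rests on 5 animals a group, and leaving out young replicate 5 gave 18 genes that rose while leaving out aged replicate 4 gave 29.

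**Figure D1:**
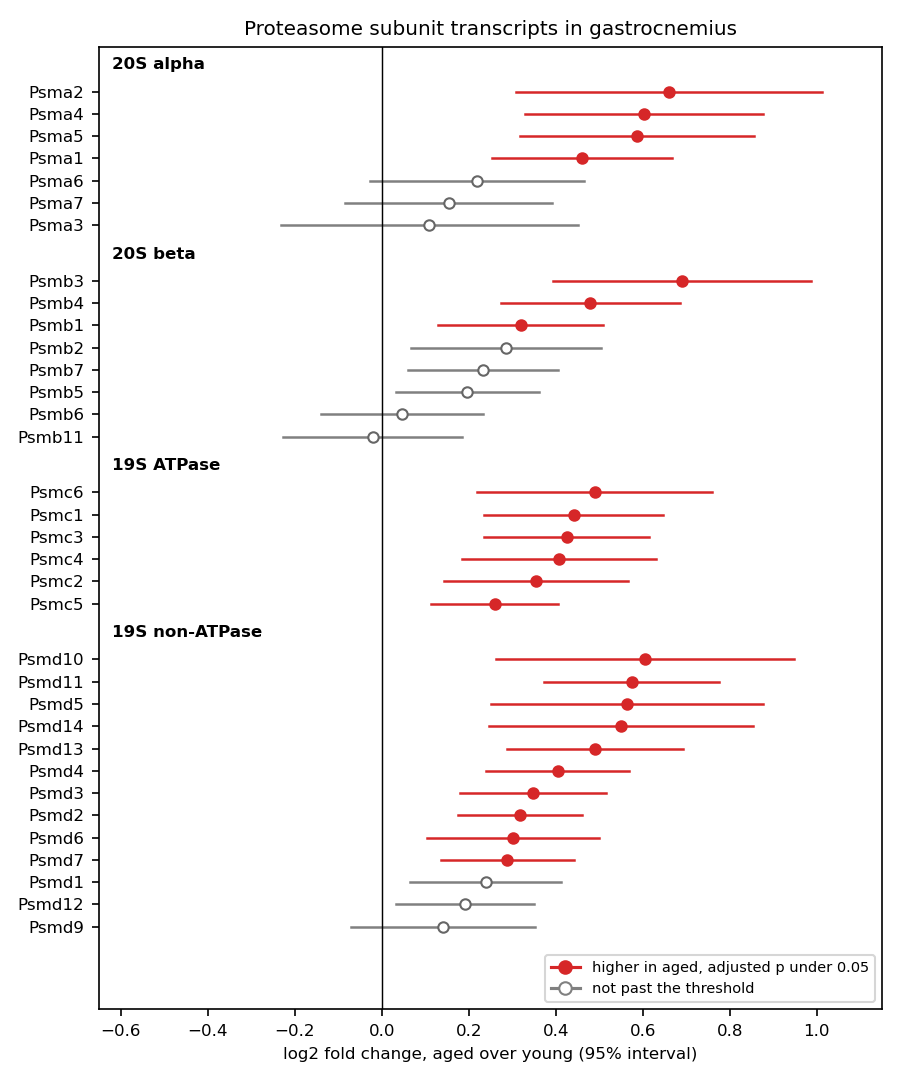
Log2 fold change of each subunit transcript, aged over young muscle, with its 95% interval from limma, for 5 animals per group; filled red points passed at an adjusted p under 0.05 and open grey points did not. All 6 ATPase genes and 10 of 13 other 19S genes passed, against 4 of 7 alpha and 3 of 8 beta genes (the dim Psmb11 included). Pass counts do not order the sizes of change. The median log2 fold change was 0.46 for alpha, 0.26 for beta, 0.42 for ATPase and 0.35 for other 19S genes. The classes were not tested against each other.

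The median intensity of an array was 13.46 to 13.74 in aged and 13.79 to 13.99 in young animals, and log2 intensities of any pair of arrays correlated at 0.977 to 0.995 (over probe sets, which do not count as replicates). Defining genes of muscle fibres were bright at both ages, with a mean log2 intensity for Acta1, skeletal alpha-actin, of 14.44 in aged and 14.36 in young muscle, and 1 of 7 such genes passed (Myh1, lower in aged). Intensity depends on the probes as well as on the transcript, so levels were compared between animals and not between genes. In whole muscle, more cells of a type and more RNA per cell cannot be told apart. Of 9 macrophage markers 6 rose, with summed intensities of 1828 to 2761 in aged and 725 to 1629 in young animals, and of 8 lymphocyte markers 1 rose, with sums of 147 to 211 in aged and 147 to 153 in young animals. Of 5 fat cell markers 1 rose, Cfd, by 2.46-fold, and their sums did not overlap, at 2144 to 3732 in aged and 1616 to 1979 in young animals. Of 6 fibroblast markers 1 rose (Col3a1, log2 fold change 0.44), while Col1a1 had -0.44 and did not pass (limma adjusted p = 0.0571). In limma 0 of 5 endothelial and 0 of 5 Schwann cell markers passed, with 2 and 1 of them at an unadjusted p under 0.05. The 2 endothelial genes, Cdh5 and Kdr, were lower in aged muscle, and the Schwann cell gene, S100b, was higher. By the same rule 13.8% of all genes rose. Aged replicate 5, highest of all animals for most subunits, had the lowest macrophage shift of the aged animals (mean log2 difference from young 0.32, against 0.67 to 0.99 in the other aged animals) and the highest lymphocyte shift (0.51, against -0.04 to 0.16). The macrophage shift of aged replicate 5 rests partly on Cd163, at 22.1 there against 89.0 to 183 in the other aged animals. Csf1r and C1qa were also lowest in aged replicate 5, while Emr1, at 108, was near the top of the aged animals. Aged replicate 4, lowest of the aged animals for most subunits, had a macrophage shift of 0.67 and a lymphocyte shift of 0.16. The part of such cells in the subunit changes was not tested.

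Among the 7 alpha genes, which form the outer rings and the gate of the core, Psma2, Psma4, Psma5 and Psma1 rose, by 1.58-fold, 1.52-fold, 1.5-fold and 1.38-fold. Psma2 had intensities of 1916, 2011, 1849, 1261 and 2895 in aged replicates 1 to 5, against 1265, 1103, 1294, 1288 and 1134 in young replicates 1 to 5. The aged values lay above every young one except in aged replicate 4, which fell among the young. The log2 fold change was 0.66 ± 0.16 (SE, n = 5 per group, limma adjusted p = 0.0149). Psma1 had 1957, 2051, 2054, 1682 and 2536 in aged and 1585, 1384, 1492, 1507 and 1445 in young animals. The groups did not overlap, and the log2 fold change was 0.46 ± 0.10 (limma adjusted p = 0.00549). A further Psma1 probe set, at an intensity of 11.1 to 16.7 in all aged animals and 11.5 to 14.02 in all young ones, did not pass (log2 fold change 0.20, adjusted p = 0.245).

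Psma3, Psma7 and Psma6 did not pass. Psma3 showed 617, 596, 440.1, 345 and 686 in aged replicates 1 to 5 and 489, 438, 452, 515 and 526 in young replicates 1 to 5, so the aged animals spread on both sides of the young. Its log2 fold change was 0.11 with a 95% interval of -0.23 to 0.45 (limma adjusted p = 0.709). The log2 fold changes of Psma7 and Psma6 were 0.15 and 0.22 (limma adjusted p = 0.404 and 0.237), each with 4 of 5 aged animals above all young ones. Without aged replicate 4, Psma6 passed (adjusted p = 0.0324).

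Of the 8 beta genes, 3 rose. Among the 4 of the constitutive core without a protease site, Psmb3, Psmb4 and Psmb1 rose, with log2 fold changes of 0.69, 0.48 and 0.32, and Psmb2 had a log2 fold change of 0.29 (limma adjusted p = 0.079). Psmb3 had the largest increase of all subunits: 1839.8, 2154, 1935, 1416 and 2745 in aged, against 1151, 1143, 1342, 1276 and 1207 in young animals. Every aged animal was above every young one, and the log2 fold change was 0.69 ± 0.14 (limma adjusted p = 0.00434). The name of its probe set ends in x_at, which on Affymetrix arrays marks probes shared with other transcripts, and it was the 1 subunit of 34 with such a name; the array's probe annotation is not given in the sources used here. Psmb1 lost its call without aged replicate 2, 3 or 5 or young replicate 2 or 5 (adjusted p up to 0.0672), and under quantile normalization (log2 fold change 0.26, adjusted p = 0.0704).

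The 3 genes whose products carry the catalytic threonine in resting cells did not pass. Psmb5, the chymotrypsin-like site, had 4332, 4453, 4523, 3623 and 4668 in aged, against 3727, 3575, 3794, 3927 and 3757 in young animals. Psmb7, the trypsin-like site, had 2661, 2847, 2607, 2350.4 and 3132 in aged, against 2388, 2239, 2273, 2431 and 2194 in young animals. In both, aged replicate 4 lay among the young animals and the other aged animals lay above all young ones. Their log2 fold changes were 0.20 (95% interval 0.03 to 0.36, limma adjusted p = 0.107) and 0.23 (0.06 to 0.40, limma adjusted p = 0.0684), and both passed without aged replicate 4 (adjusted p = 0.0166 and 0.0237). Psmb7 also passed with each array centred on its median (adjusted p = 0.0477) and when probe sets were averaged per gene, which leaves fewer tests (adjusted p = 0.0464). Psmb6, the caspase-like site, had 1647, 1599, 1568, 1263 and 1757 in aged, against 1479, 1423, 1509, 1609.7 and 1526 in young animals. The groups overlapped widely, and the log2 fold change of 0.05 had an interval of -0.14 to 0.23 (limma adjusted p = 0.78), which leaves out the change measured for Psmb3. The difference between catalytic and other beta genes was not tested. Psmb11, known in mouse and human as a subunit of thymic epithelium, was at 10.45 to 12.15 in aged and 9.06 to 12.96 in young animals, below the median intensity of any array, and did not pass (limma adjusted p = 0.917).

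Each catalytic subunit has a counterpart that replaces it in the immunoproteasome, the form induced by interferon, and all 3 counterparts rose. Psmb8, which takes the place of Psmb5, rose 3.66-fold, Psmb9, which takes that of Psmb6, 3.29-fold, and Psmb10, which takes that of Psmb7, 1.70-fold (limma adjusted p = 0.00064, 0.00201 and 0.0367). The log2 ratio of Psmb8 to Psmb5 was higher by 1.67 in aged muscle, with aged animals 1.06 to 2.76 and young animals -0.36 to 0.31 from the young mean (exact two-sided permutation p = 0.00794, the smallest that 5 against 5 allows, 0.0119 adjusted over 3 pairs). The ratio of Psmb9 to Psmb6 was also higher by 1.67 (aged 1.06 to 2.94, young -0.16 to 0.27, exact permutation p = 0.00794, adjusted 0.0119). The ratio of Psmb10 to Psmb7 was higher by 0.53, and its groups touched (aged 0.16 to 1.37, young -0.23 to 0.17, exact permutation p = 0.0159, adjusted 0.0159). Aged replicate 5 was far above the others for all 3 counterparts, with 501, 649 and 332 for Psmb8, Psmb9 and Psmb10, against 119 to 238 in the other aged animals. Without it the 3 differences in ratio were 1.40, 1.36 and 0.32 (exact permutation p = 0.00794, 0.00794 and 0.0238, unadjusted), the last of them smaller by more than 1.5 times. Without the 2 aged arrays whose deposited column names call them replacements, the ratio of Psmb10 to Psmb7 was higher by 0.30 and did not pass (exact permutation p = 0.0714).

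**Figure D2:**
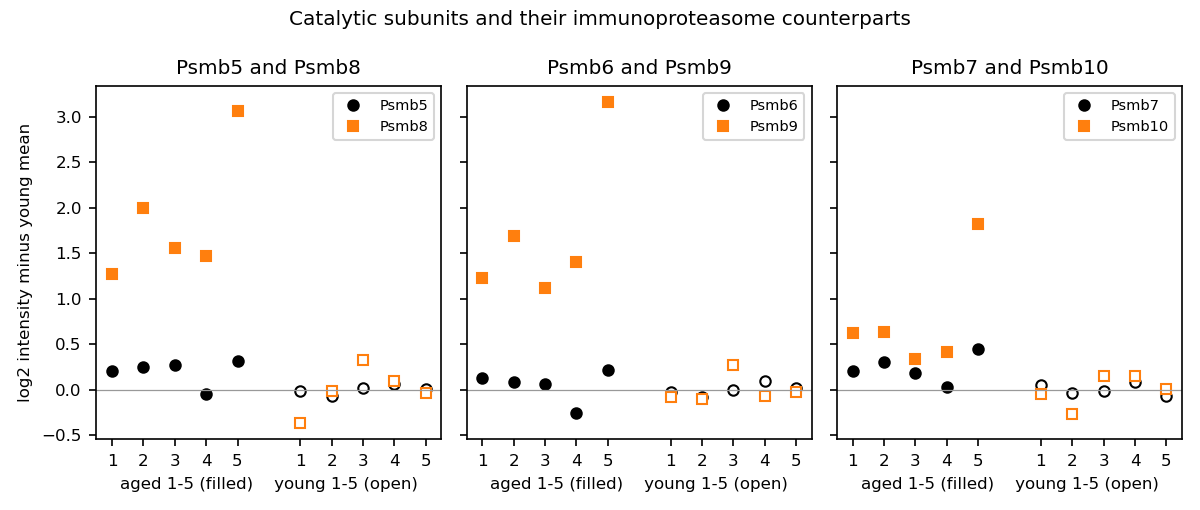
Log2 intensity of each catalytic subunit (black circles) and of its immunoproteasome counterpart (orange squares) minus that gene's young mean, in 5 aged (filled) and 5 young (open) animals. Psmb8 and Psmb9 stand above all young values in each aged animal, with aged replicate 5 highest, while Psmb5, Psmb6 and Psmb7 stay much nearer to their young means.

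All 6 ATPase genes, whose products form the ring that unfolds substrates, rose in aged muscle, from 1.2-fold for Psmc5 to 1.40-fold for Psmc6. Psmc6 had 1741, 1775, 1574, 1279 and 2319 in aged, against 1262, 1189, 1109, 1215 and 1308 in young animals. Again aged replicate 4 was the animal inside the young range, and the log2 fold change was 0.49 ± 0.13 (limma adjusted p = 0.0183). Psmc5 had 2530.4, 2546, 2874, 2437 and 2834 in aged, against 2118, 2241, 2176, 2225 and 2266 in young animals. Its groups did not overlap, and its log2 fold change of 0.26 ± 0.07 (limma adjusted p = 0.0195) was the smallest of any subunit that passed. The call of Psmc5 was lost without aged replicate 3 or 5 (adjusted p up to 0.0521) and under quantile normalization (adjusted p = 0.0756). Psmc1, Psmc3, Psmc4 and Psmc2 lay between these, at 1.36-fold, 1.34-fold, 1.33-fold and 1.28-fold. The 6 log2 fold changes spanned 0.26 to 0.49, a narrower range than those of the alpha genes (0.11 to 0.66) or the beta genes (-0.02 to 0.69); this difference in range was not tested. Psmc2 lost its call without aged replicate 2 or 3 or young replicate 2, 3 or 5 (adjusted p up to 0.0673), and under quantile normalization (adjusted p = 0.0556).

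Of the 13 other 19S genes, 10 rose. The 7 lid genes, whose products include the deubiquitinase Psmd14 and the scaffold around it, gave 6 that rose. The other, Psmd12, had a log2 fold change of 0.19 (limma adjusted p = 0.103). Its second probe set, also bright at 854 to 1225 over all animals, gave 0.02 (adjusted p = 0.916). The mean over the Psmd12 probe sets gave 0.11 (adjusted p = 0.375). Psmd11, a lid scaffold that also touches the core particle, had 2348, 3219, 2835, 2407 and 3148 in aged, against 1891, 1827, 1798, 1945 and 1835 in young animals. The groups were wide apart, and the log2 fold change of 0.57 ± 0.09 had the lowest adjusted p of all subunits (0.00125, limma). A second Psmd11 probe set gave 0.58 (adjusted p = 0.00363), while a pair of dim ones, at intensities of 5.47 to 25.2, gave -0.14 and 0.12 and did not pass (adjusted p = 0.286 and 0.499). The mean over all 4 probe sets gave a log2 fold change of 0.28, which still passed.

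Psmd14, which removes ubiquitin chains before the substrate enters, had 1018, 1100.1, 1104, 682 and 1346 in aged, against 719.9, 663, 728, 745 and 654 in young animals. Aged replicate 4 lay within the young range and the other aged animals lay above it (log2 fold change 0.55 ± 0.14, limma adjusted p = 0.0182). The remaining lid genes Psmd13, Psmd3, Psmd6 and Psmd7 rose by 1.40-fold, 1.27-fold, 1.23-fold and 1.22-fold, and the call of Psmd6 (adjusted p = 0.042) was lost in 8 of 10 fits that left out 1 animal (adjusted p up to 0.089) and under quantile normalization (adjusted p = 0.0697). The call of Psmd7 was lost without the 2 aged arrays named as replacements (adjusted p = 0.0547). Of the 3 base proteins beside the ATPases, Psmd4, a ubiquitin receptor, and Psmd2, a large scaffold, rose with log2 fold changes of 0.40 and 0.32, with both Psmd2 probe sets called. Psmd1, the other large scaffold, had a log2 fold change of 0.24 (limma adjusted p = 0.0644) and passed when aged replicate 1 was left out (adjusted p = 0.0422), and also when aged replicate 4 was (0.0314), with each array centred on its median (0.0426) and among probe sets above the median brightness (0.0489).

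Psmd5, Psmd9 and Psmd10 encode chaperones that help to assemble the base and leave the finished particle. Psmd10, also known as gankyrin, had 96.9, 116, 111, 76.2 and 156 in aged, against 79.0, 59.2, 77.7, 79.3 and 63.2 in young animals. Psmd5 had 171, 219.8, 189, 122 and 207 in aged, against 139, 109, 134, 123 and 102 in young animals. In both, 4 of 5 aged animals were above all young ones, and both rose (log2 fold changes 0.60 ± 0.16 and 0.56 ± 0.14, limma adjusted p = 0.0207 and 0.0183). Psmd9 had 174, 183, 195, 134 and 173 in aged, against 154, 137, 167, 161 and 157 in young animals. Here too aged replicate 4 was lowest, by itself below all young animals, and the log2 fold change was 0.14 with an interval of -0.07 to 0.35 (limma adjusted p = 0.393). The call of Psmd10 was lost without aged replicate 2 or young replicate 2 or 5 (adjusted p up to 0.0553) and that of Psmd5 without young replicate 5 (adjusted p = 0.0511). A dim second probe set of Psmd5, at 9.77 to 10.6 in aged and 9.45 to 11.5 in young animals, did not pass (log2 fold change -0.04, adjusted p = 0.772), and the mean over both Psmd5 probe sets gave 0.26 (adjusted p = 0.061).

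The same aged animals were at the top and the bottom for most subunits. Over the 33 subunits other than Psmb11, aged replicate 5 was the highest of the aged animals in 29 and aged replicate 4 the lowest in 28. Among the 6057 other genes of like brightness, aged replicate 5 was the highest of the aged animals in 21.2% and aged replicate 4 the lowest in 30.4%. The mean log2 difference from young was 0.31, 0.46, 0.39, 0.07 and 0.65 in aged replicates 1 to 5, against 0.02, -0.06, 0.02, 0.05 and -0.03 in young replicates 1 to 5. Aged replicates 1 and 5 exceeded every young animal in all 33 subunits, replicates 2 and 3 in 32 and 31, and replicate 4 in 15. In aged replicate 4 the mean difference was -0.03 for alpha, 0.05 for beta, 0.13 for ATPase and 0.12 for other 19S genes, and in aged replicate 5 it was 0.82, 0.58, 0.66 and 0.60. The SD between animals was larger in the aged group for 33 of 34 subunits, as for 63% of all genes and 79.2% of the other genes of like brightness, with medians of 0.21 in aged and 0.08 in young animals over the subunits.

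**Figure D3:**
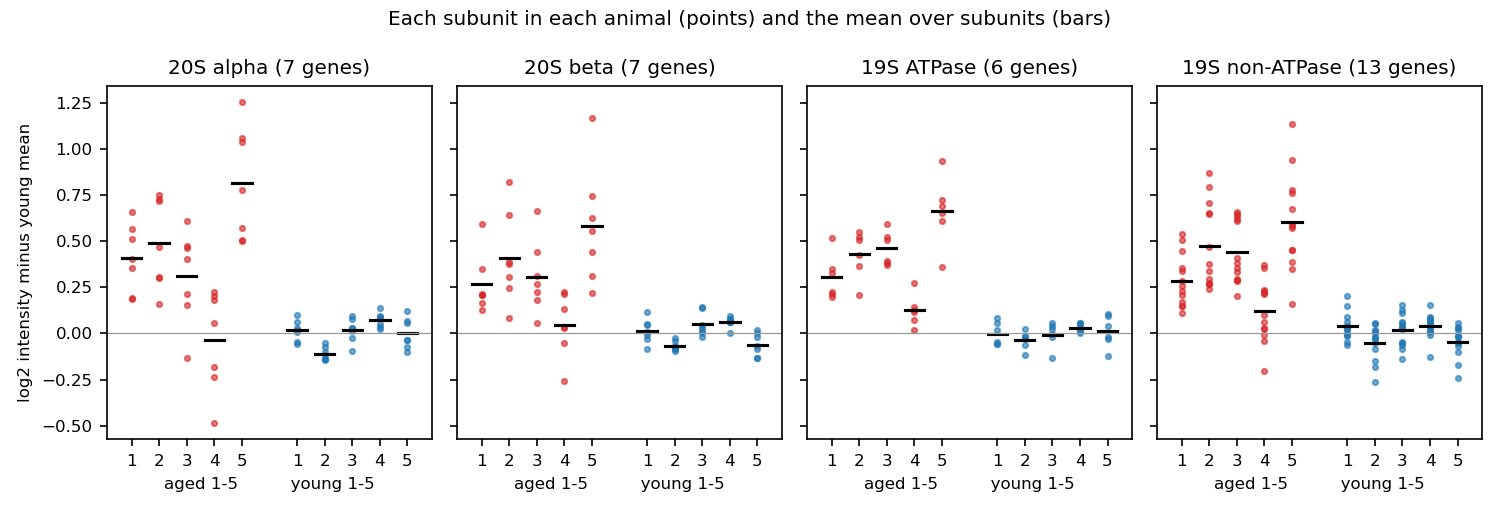
Log2 intensity of each subunit minus its young mean in each of 5 aged and 5 young animals, by class; each point is 1 gene, the black bar is the mean over the genes of the panel, and Psmb11 is left out as dim. In every panel the bar of aged replicate 5 is highest and that of aged replicate 4 lowest among the aged, and the young bars stay between -0.11 and 0.07.

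Several genes that act with the proteasome were higher as well. Nfe2l1 had 1076, 1421, 1711, 1228 and 1925 in aged, against 614, 674, 530.2, 719.9 and 556 in young animals. The groups were far apart, with a 2.34-fold increase (log2 fold change 1.23 ± 0.15, limma adjusted p = 0.000189), and all 3 of its probe sets rose. Nfe2l2, a related factor of the oxidative stress response, had 541, 778, 616, 583 and 687 in aged, against 479.9, 431, 434, 443 and 372 in young animals. It rose 1.48-fold, on both of its probe sets (limma adjusted p = 0.0024 for the brighter). Ddi2, the protease that releases the Nfe2l1 product in active form, had a log2 fold change of 0.41 (limma adjusted p = 0.0593). Of the other 4 regulators, Zfand5, which is induced in wasting muscle, binds the proteasome and raises its activity, rose 1.32-fold on its brightest probe set. Its next brightest gave a log2 fold change of 0.28 (limma adjusted p = 0.0652), and its dimmer ones did not pass. Nfyb, a subunit of the factor that binds CCAAT, fell to 0.764 of the young level on its brighter probe set, while its dimmer one gave a log2 fold change of 0.00 (limma adjusted p = 0.999). Nfya and Nfyc had log2 fold changes of -0.06 and -0.04 and did not pass.

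Among 5 activators and inhibitors of the core, Psme1 and Psme2, the interferon-induced cap, rose 1.45-fold and 1.52-fold, and Psme3, the nuclear cap, 1.22-fold on the brighter of its probe sets, while the other gave a log2 fold change of 0.07 (adjusted p = 0.707). Psme4, a cap known from sperm and chromatin, had 874, 938, 751, 642 and 817 in aged, against 1082, 1302, 846, 1076 and 1000.0 in young animals. It was the exception: 3 of 5 aged animals lay below every young one, and it fell by 0.40 on the log2 scale (limma adjusted p = 0.0414). A second of its 3 probe sets fell by 0.52 and the third gave -0.12 (adjusted p = 0.569). Psmf1, an inhibitor, had a log2 fold change of -0.04 (adjusted p = 0.791). Of 4 assembly factors of the core, Pomp, which helps to close the barrel, rose 1.26-fold and Psmg2 1.21-fold, and Psmg1 and Psmg4 did not pass.

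Of 9 proteins that sit on the cap or bring ubiquitin to it, 4 rose: Usp14, the deubiquitinase that trims chains, by 1.42-fold, the shuttle Rad23b by 1.31-fold, the small lid protein Sem1 (listed as Shfm1) by 1.29-fold and the receptor Adrm1 by 1.17-fold. Of 5 genes for ubiquitin supply and the unfoldase p97, Vcp, which encodes p97, rose 1.48-fold and the ubiquitin fusion gene Rps27a rose 1.52-fold. The name of the Rps27a probe set ends in x_at, as that of Psmb3 does, so it may be shared with other transcripts. The polyubiquitin gene Ubb had a log2 fold change of 0.02 and did not pass (limma adjusted p = 0.87). In these 5 lists together, 14 of 30 genes rose and 2 fell, against 13.8% and 8.69% of all genes.

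**Figure D4:**
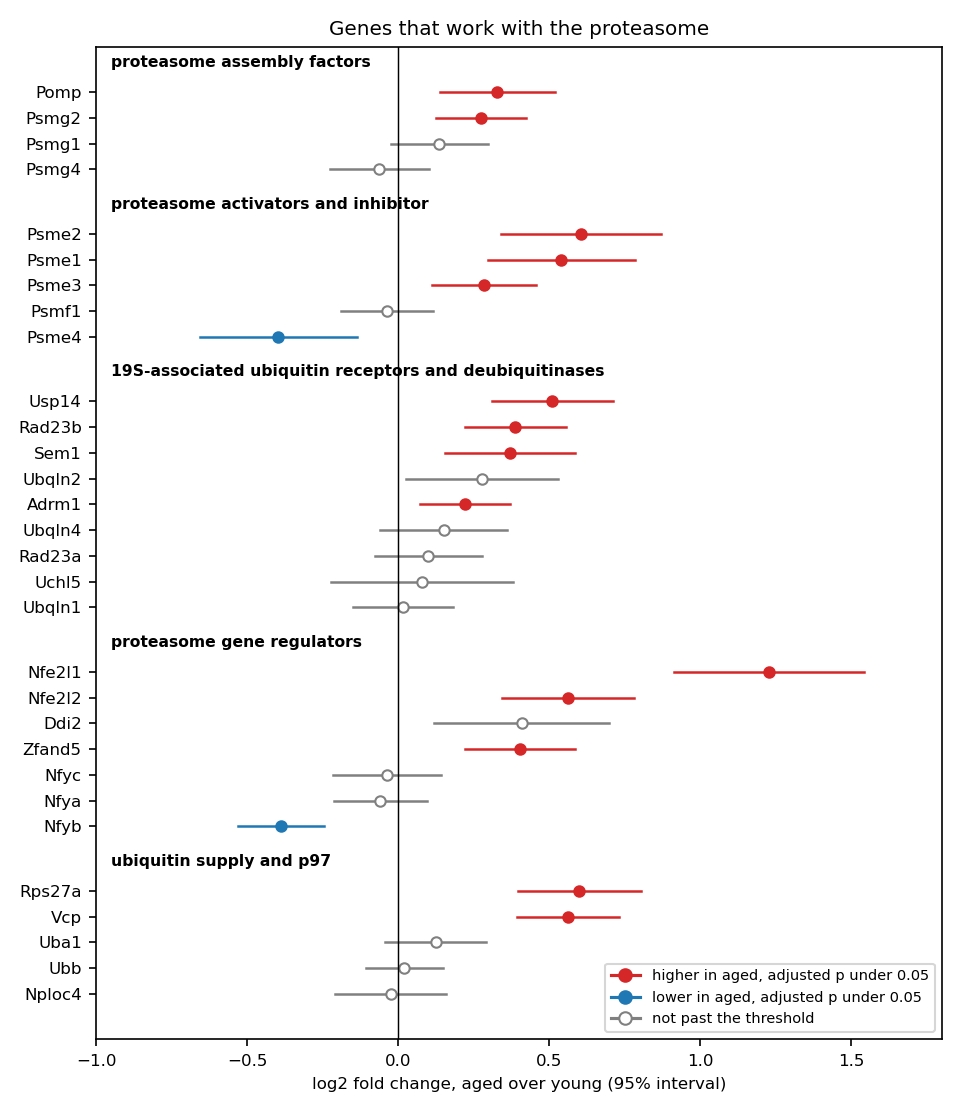
Log2 fold change, aged over young muscle, of genes that regulate, assemble, activate or feed the proteasome, with 95% intervals from limma, for 5 animals per group; red passed as higher, blue as lower, open grey did not pass. Nfe2l1 stands furthest to the right at 1.23, and Psme4 and Nfyb lie left of 0.

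In the promoter windows, the letters TGACNNNGC occurred in 6 of 29 subunit genes (20.7%), as in 10.1% of 33469 promoters of all kinds. All 6 (Psma3, Psmb2, Psmb5, Psmb6, Psmd1 and Psmd9) were among the 8 matched subunits that did not pass, and 0 of the 21 matched subunits that rose held it. With the 50 bases after the start included, a 7th gene, Psmd3, which rose, held it too. Not passing does not mean unchanged. Of the 6, Psmb2, Psmd1 and Psmb5 had log2 fold changes of 0.29, 0.24 and 0.20 with 95% intervals above 0. Each of them passed without aged replicate 4, and Psmb2 changed more than Psmc5 (0.26), which passed. Psma3, Psmb6 and Psmd9 had intervals that included 0. The letters CCAAT occurred in 16 of 29 (55.2%), as in 34% of all promoters, in 12 of the 21 that rose and 4 of the 8 that did not pass. In the Psmb5 sequence above the first motif starts 60 bases before the start of the gene, and in those of Psmb3 CCAAT starts 65 and 24 bases before it. In Psmb2 the 2 motifs share 1 base. Each window precedes only 1 annotated start, and some genes are annotated to begin further upstream. The windows of Psma6, Psmb1, Psmd3, Psmd5 and Psmd11 lie wholly within the annotated gene, and the TGACNNNGC letters of Psma3 and Psmb6 also lie within it. For such genes the bases before the outermost start were not searched. These matches describe letters in a short window, were looked at with the calls known, and were not tested.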

How the data were processed

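RNA from the gastrocnemius of 5 aged and 5 young rats was hybridised to 10 one-colour arrays, 1 per animal. The deposited values are linear intensities per probe set, and RMA is named in the submitters' processing notes, without version or settings. RMA models probe brightness across arrays and scales their distributions to each other, so a shift shared by all transcripts would be removed. The deposited values were not fully equal in distribution. Array medians were 13.46 to 13.74 in aged and 13.79 to 13.99 in young animals, without overlap. The files give no detection or background columns. The 10 columns of the authors' deposited table are named by age group and by rat number or as replacements. Only aged arrays, 2 of them, are named as replacements. No label ties these names to replicate numbers, and which replicates are the replacements is not given here. Each column equals a column of the series' value table, which supplied the values per animal.

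Intensities were taken to log2 with no pseudocount or filter and compared, aged minus young, with limma 3.58.1 in R 4.3.3, with p-values adjusted by Benjamini-Hochberg over 43686 probe sets and a threshold of 0.05. Each gene was read from its brightest probe set. The ratios of immunoproteasome to constitutive genes were compared by exact permutation over animals. The fit was tested on simulated data. Genes named were all subunits and the companion lists, of which some members are not reported here, and the members and lists were chosen with earlier results of these data known. Same-numbered animals did not deviate together and are separate animals. Alternatives changed the normalization, the probe set rule, the filter, the variance model and the animals included. With 5 animals a group, the number of arrays limits the precision.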

Additional observations from a re-analysis of the deposited data

How the results depend on the processing

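The count of 23 subunits that rose was 19 under quantile normalization, 25 with each array centred on its median, 23 with the mean over all probe sets of a gene, 24 among probe sets above the median, 22 without the 2 replacement arrays and 18 to 29 when 1 animal was left out. After the data were seen, 2 alternatives were added: adjusting over the brightest probe sets alone gave 25, and weighting arrays by the variance of their age group gave 23. No subunit was called lower in any of these fits. Leaving out 1 animal gave 4 to 5 alpha, 2 to 6 beta, 4 to 6 ATPase and 7 to 12 other 19S genes that rose, with the 6 beta genes found without aged replicate 4; the cause was not tested. The log2 fold change of the dim Psmb11 changed sign to 0.013 under quantile normalization and 0.0089 under median centring, and ran from -0.109 to 0.021 when 1 animal was left out, above 0 without aged replicate 1, young replicate 1 or young replicate 5; none of these passed, and the cause was not tested. With the replicate number as a block, 19 subunits rose. The deviations of same-numbered animals from their group means, over all probe sets, correlated at -0.12 to 0.03, so no pairing by number was seen. Over all probe sets 3535 were higher and 3001 lower, against 3057 and 3334 under quantile normalization and 3973 and 2330 with median centring.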
